A study of Homo sapiens with 3 samples.

Results

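The genes examined were the small nucleolar RNA (snoRNA) and small Cajal body RNA (scaRNA) genes of HEC1B, an established cell line from a human endometrial cancer. A gene was a member if its symbol in the count table starts with SNORD, SNORA or SCARNA and its counts summed over the 3 libraries reached 15. Of 411 genes with such symbols, 56 were members: 22 of 279 SNORD genes, 28 of 108 SNORA genes and 6 of 24 SCARNA genes. The whole table holds 26485 genes, of which 8227 reach the same sum and serve as the background. The members were thus chosen by measured values, their summed counts, and these sums are given as a description.

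Total RNA was sequenced at 48 h in 3 libraries of this line. The siNC library is labelled wild type and received the control siRNA. The siPRMT6-1 and siPRMT6-2 libraries carry the label PRMT6 knockdown and each received a different siRNA directed at PRMT6, an enzyme that methylates arginines of histones and of other proteins. The labels give no further allele, agent or age for any of them. With 1 library per siRNA and 1 control, every ratio to siNC compares a pair of libraries, not conditions, and both ratios share the siNC library.

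SnoRNAs are short noncoding RNAs of the nucleolus that guide the modification and cutting of ribosomal RNA. Box C/D RNAs (SNORD genes) pair with a target and direct fibrillarin to methylate a ribose, and box H/ACA RNAs (SNORA genes) direct dyskerin to turn a uridine into pseudouridine. ScaRNAs (SCARNA genes) do the same for spliceosomal RNAs in Cajal bodies. Most human snoRNAs are cut out of introns of host genes, often genes for ribosomal proteins or noncoding SNHG genes, and a few, such as U3, are transcribed from promoters of their own.

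The sequences below show what defines the classes and some of the members named in the results. They are GENCODE release 29 transcripts on GRCh38, which is the build of the count table, and are written 5′ to 3′ in DNA letters. Of the 56 members, 53 matched a single-exon GENCODE transcript on the same strand, 37 of them with the same ends as in the deposited gene models. SNORD3A and SNORD3C are copies of U3, which acts in the first cuts of the ribosomal RNA precursor. SNORD10 is the other abundant box C/D member, and SNORD26 had the highest ratio to siNC of all SNORD members with siPRMT6-1. Capitals in these 4 mark the first TGATGA (the box C letters) where there is a match and the last CTGA (the box D letters).
SNORD3A, chr17:19188016-19188232, plus strand, no host gene: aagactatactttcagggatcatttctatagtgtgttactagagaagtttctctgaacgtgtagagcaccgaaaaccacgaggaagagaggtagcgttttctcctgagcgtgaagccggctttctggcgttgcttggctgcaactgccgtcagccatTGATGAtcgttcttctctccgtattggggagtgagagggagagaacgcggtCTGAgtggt
SNORD3C, chr17:19190029-19190245, minus strand, no host gene: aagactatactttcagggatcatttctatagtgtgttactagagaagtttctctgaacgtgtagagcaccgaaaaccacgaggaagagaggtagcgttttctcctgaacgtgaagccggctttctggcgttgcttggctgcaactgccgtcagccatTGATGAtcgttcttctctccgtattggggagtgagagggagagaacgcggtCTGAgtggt
SNORD10, chr17:7576811-7576952, plus strand, within EIF4A1: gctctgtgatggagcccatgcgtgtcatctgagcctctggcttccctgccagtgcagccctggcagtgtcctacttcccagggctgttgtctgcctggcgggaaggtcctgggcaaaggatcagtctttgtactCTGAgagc
SNORD26, chr11:62855292-62855366, minus strand, within SNHG1: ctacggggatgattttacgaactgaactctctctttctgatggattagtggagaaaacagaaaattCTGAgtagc

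From SNORD3A to SNORD3C the only substitution is G108A, counted from 1 at the 5′ end, so reads can tell these copies apart only at that base. SNORD3D differs from SNORD3A by A4G, C53T and A78C, and SNORD3B-1 by A78C. SNORD3B-1 and SNORD3B-2 have the same 2 loci in the deposited models and the same counts in every library, so the same reads stand in both rows. How counts divide among the 5 U3 rows is therefore uncertain, and their sum is used below. SNORA7A and SNORA7B differ by G26C and C114T, and SNORA73A and SNORA73B share 93.2% of their bases, so these pairs are uncertain too.

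The box H/ACA members shown next are the most abundant of the class, SNORA73A (also called U17), the guide SNORA16A with a high ratio with siPRMT6-1, SNORA12 with its high count in siPRMT6-2, and SNORA57 with its low count there. SCARNA2, a guide RNA for U2 small nuclear RNA, holds most of the SCARNA counts. Capitals mark the last ACA of the final 6 bases in the SNORA sequences, and TGATGA and the last CTGA in SCARNA2.
SNORA73A, chr1:28507366-28507571, plus strand, within SNHG3: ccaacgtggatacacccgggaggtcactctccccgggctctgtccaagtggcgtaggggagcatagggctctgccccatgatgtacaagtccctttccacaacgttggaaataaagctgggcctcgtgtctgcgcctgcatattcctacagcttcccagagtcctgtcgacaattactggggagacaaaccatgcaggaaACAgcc
SNORA16A, chr1:28580920-28581054, minus strand, within SNHG12: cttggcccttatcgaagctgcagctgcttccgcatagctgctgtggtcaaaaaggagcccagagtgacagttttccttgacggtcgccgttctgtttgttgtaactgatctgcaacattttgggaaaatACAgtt
SNORA12, chr10:100237156-100237302, minus strand, within an intron of CWF19L1: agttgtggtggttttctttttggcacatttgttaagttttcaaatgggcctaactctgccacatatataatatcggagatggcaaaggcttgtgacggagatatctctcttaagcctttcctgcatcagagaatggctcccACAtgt
SNORA57, chr11:62665422-62665570, plus strand, within METTL12: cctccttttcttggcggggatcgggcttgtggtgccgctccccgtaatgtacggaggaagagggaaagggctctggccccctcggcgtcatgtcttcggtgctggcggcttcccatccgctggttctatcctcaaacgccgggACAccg
SCARNA2, last 120 of its 420 bases, chr1:109100493-109100612, plus strand, no host in the deposited models: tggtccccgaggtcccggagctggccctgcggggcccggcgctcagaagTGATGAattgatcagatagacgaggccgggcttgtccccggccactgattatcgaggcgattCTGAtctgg

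These letters largely separate SNORD from SNORA members but do not set the SCARNA members apart. CTGA lay in the last 15 bases of 20 of 20 matched SNORD members and of 2 of 28 SNORA members, against 7.07% of 203677 GENCODE transcripts of at least 100 bases. ACA lay in the last 6 bases of 27 of 28 SNORA members and of 0 of the 20 SNORD members, against 7.7% of the same transcripts. Of the 5 matched SCARNA members, 3 had CTGA in the last 15 bases and 3 had ACA in the last 6. TGATGA was present in 16 of 20 matched SNORD members and 0 of 28 SNORA members, where 4.43% and 4.55% of transcript starts of the same length hold it. On the opposite strand TGATGA was absent from all 53. CTGA and TGATGA were counted separately and can overlap where a C stands before TGATGA, and a match is only a match of letters. CTGA anywhere in the sequence was found in 20 SNORD members on their own strand and in 10 on the opposite strand, where 49.5% of transcript starts of the same length hold it.

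The libraries held 410916 counts (siNC), 381628 (siPRMT6-1) and 362080 (siPRMT6-2), and 5754, 5679 and 5512 genes reached 10 counts. PRMT6 itself had 25, 4 and 7 counts in that order. Of the epithelial and Müllerian markers listed for this line, KRT8 had 1329, 681 and 770 counts, KRT18 had 129, 85 and 95, and PAX8 had 158, 117 and 227. EPCAM (5, 5 and 4 counts), CLDN4 (3, 1 and 6) and ESR1 (1 count in all) were near 0, and KRT19, CDH1, SOX17 and PGR were at 0 in each library. The part of these marker differences in the members' ratios was not tested. Leukocyte markers PTPRC and CD3E were at 0, and CD68 had 17, 19 and 56 counts. COL1A1 had 515, 354 and 370 counts, with COL1A2 and DCN at 0, and PECAM1 had 19, 16 and 5. Opposite-strand gene pairs in this table leave the strand that a count stands for uncertain, and if it is the opposite strand throughout, the counts below are not those of the snoRNAs themselves.

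Members held 2835 counts of the siNC library (0.690%), 3345 of siPRMT6-1 (0.877%) and 3003 of siPRMT6-2 (0.829%). Counts were concentrated in few genes. Below the threshold, 217 genes of these classes were at 0 and 138 had 1 to 14 counts, 575 in all, against 9183 for the members. Just inside the threshold was SNORA52 with 15 counts (2 in siNC, 10 in siPRMT6-1, 3 in siPRMT6-2), and just outside were SCARNA13, SCARNA20, SNORA62 and SNORA81 with 13 each. The SNORD clusters of imprinted loci were nearly empty: the 9 SNORD113 genes had 0 counts, SNORD114 and SNORD115 had 1 each, and the 30 SNORD116 genes had 8, 9 and 8.

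No member passed the test of both knockdown libraries against siNC. In the edgeR quasi-likelihood fit across 6803 genes, 46 members were tested (17 SNORD, 26 SNORA, 3 SCARNA), and 0 members and 0 genes (0.00%) had a Benjamini-Hochberg adjusted p under 0.05. The lowest adjusted p was 1.00. At an unadjusted p under 0.05 there were 3 members, all higher with the knockdown, against 138 higher genes, or 2.03% of those tested. These were SNORD14C, SNORD50A and SNORA31. DESeq2 called 0 members and 0 genes, with 1 member and 13 genes at an unadjusted p under 0.05. The edgeR legacy fit called 32 genes and 0 members, with 5 of the 46 members and 223 of the 6803 genes at an unadjusted p under 0.05, the 5 members and 169 of those genes higher. With 1 control library, a member that does not pass is not shown to be unchanged. Values from here on are counts in siNC, siPRMT6-1 and siPRMT6-2, always in that order, and ratios to siNC of counts scaled to library size, first for siPRMT6-1 and then for siPRMT6-2, with 95% exact binomial intervals that cover counting error only.

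The library with the highest level differed between the U3 copies and the remaining snoRNAs. The 5 U3 rows summed to 1431, 1369 and 1856 counts, which include the same SNORD3B reads (29, 27 and 32 counts) from both of its rows. Their ratio to siNC was 0.996 (0.924 to 1.07) with siPRMT6-1 and 1.52 (1.41 to 1.63) with siPRMT6-2. The 17 other SNORD members summed to 417, 626 and 324 counts, with ratios of 1.56 (1.38 to 1.77) and 0.908 (0.783 to 1.05). The SNORA members stood at 715, 1001 and 522 counts, with ratios of 1.46 (1.32 to 1.61) and 0.853 (0.761 to 0.957). Other SNORD and SNORA members were thus high in siPRMT6-1, and the U3 rows were high in siPRMT6-2. Within a library, where scaling plays no part, there were 1.71, 1.60 and 1.61 SNORA counts per count of the other SNORD members, and 0.500, 0.731 and 0.281 per U3 count, for siNC, siPRMT6-1 and siPRMT6-2.

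**Figure D1:**
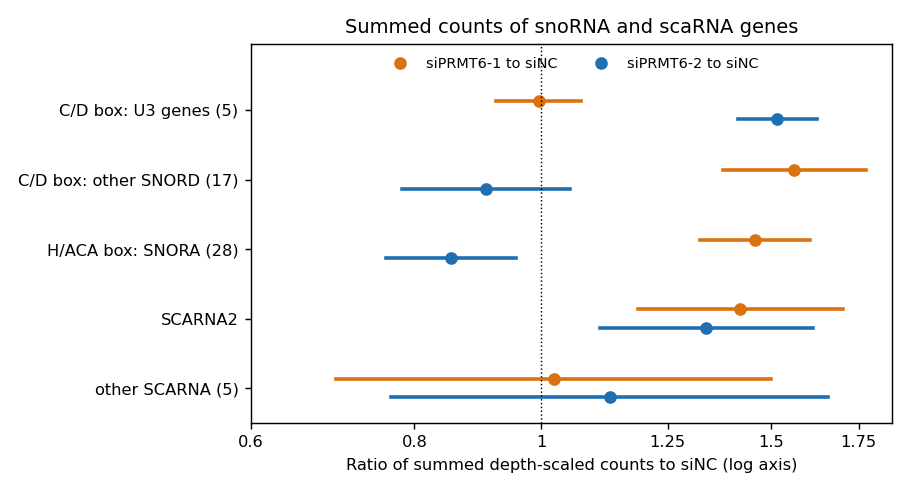
Ratio of the summed depth-scaled counts of each group in siPRMT6-1 (orange) and siPRMT6-2 (blue) to siNC, on a log axis; points are ratios, bars are 95% exact binomial intervals for counting error, and numbers in brackets are genes. U3 stands above 1 with siPRMT6-2 at 1.52, while the other SNORD and the SNORA genes stand above 1 with siPRMT6-1 at 1.56 and 1.46.

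As a result the sum over all SNORD members, 1848, 1995 and 2180 counts, depends on U3. Its ratios of 1.12 (1.05 to 1.20) and 1.38 (1.30 to 1.47) turn into the values above when U3 is left out. For siPRMT6-2 that value is 0.908, with an interval (0.783 to 1.05) that includes 1. With U3 kept and SNORD3B counted once, the SNORD ratios were 1.13 (1.06 to 1.20) and 1.38 (1.30 to 1.47). For siNC, siPRMT6-1 and siPRMT6-2 in turn, SNORD genes made up 65.2% of member counts (Clopper-Pearson interval 63.4 to 66.9), 59.6% (58.0 to 61.3) and 72.6% (71.0 to 74.2). SNORA genes made up 25.2% (23.6 to 26.9), 29.9% (28.4 to 31.5) and 17.4% (16.0 to 18.8). The SCARNA share was 9.59%, 10.4% and 10.0%, the steadiest of the 3.

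Gene by gene, the siPRMT6-1 library again stood apart. Of the 56 members, 39 had their highest depth-scaled count there, against 33.0% of background genes, and among SNORA members 24 of 28 did. Against siNC, 44 of 56 members had a ratio above 1 with siPRMT6-1 (50.5% of background genes) and 29 of 56 with siPRMT6-2 (51.3%). The interval lay wholly above 1 for 15 members with siPRMT6-1 (7 SNORD, 7 SNORA, 1 SCARNA), where the background share was 4.97%, and wholly below 1 for 2 (6.05%). With siPRMT6-2 it lay above 1 for 6 members (8.23%) and below 1 for 4 (7.40%). With siPRMT6-1, 17 members stood 2-fold or more above siNC (7.91%) and 2 stood 2-fold or more below it (7.23%). With siPRMT6-2 these numbers were 7 (11.1%) and 3 (7.89%). Of the 17 members, 10 had 15 to 29 counts in all, such as SNORA17 with 4, 11 and 5 and SNORD96A with 5, 10 and 1, and these 10 reached the threshold of 15 only with the siPRMT6-1 counts in which they are high. The other 7 were among the 24 members with 30 to 99 counts, and 0 of the 11 members with 100 or more were 2-fold higher. Background genes in the same 3 ranges of summed counts were 2-fold higher in 15.1%, 6.23% and 1.16%. The members counted as highest in siPRMT6-1, above 1 there or with intervals above 1 there carry the same limit. Of those with intervals above 1, SNORA52, SNORA31, SNORA21 and SNORD26 reached the threshold of 15 only with their siPRMT6-1 counts. Others highest there did so too: SCARNA1, SCARNA9, SCARNA9L, SNORA17, SNORA26, SNORA63, SNORA68, SNORD22, SNORD23, SNORD46 and SNORD96A. The same held for SNORD15A and SNORA20, which had ratios above 1 there but were highest in siPRMT6-2. The comparison of siPRMT6-2 with siPRMT6-1 and the class medians that follow include such members too. Members high in another library can carry this limit as well, such as SNORA12 for siPRMT6-2 and SNORD49B for siNC. Setting siPRMT6-2 against siPRMT6-1 directly, the ratio was below 1 for 42 members and above 1 for 14, where 50.8% of background genes were above. Its interval lay wholly below 1 for 13 members (8.03%), 9 of them SNORA, and wholly above 1 for 4 (9.57%), of which SNORD3A, SNORD3C and SNORD3D are U3 copies and SNORA12 is not. In that pairing 20 members were 2-fold or more lower with siPRMT6-2 (9.93%), 13 of them SNORA, and 3 were 2-fold or more higher (12.0%). The SNORA sum stood at 0.586 (0.526 to 0.652) of its siPRMT6-1 level, the other SNORD sum at 0.581 (0.507 to 0.666) and the U3 sum at 1.52 times that level.

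The medians tell the same order on the log2 scale with a prior count of 2. With siPRMT6-1 the median log2 ratio to siNC was 0.45 over SNORD, 0.59 over SNORA and 0.27 over SCARNA members, against 0.01 over the 8227 background genes. With siPRMT6-2 it was 0.15, -0.09 and 0.16, against 0.01. The U3 rows had medians of -0.04 and 0.34, and the other SNORD members 0.65 and -0.34. Members differed widely within a class: with siPRMT6-1 the SNORD values ran from -1.43 to 2.27 and the SNORA values from -0.60 to 2.19.

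**Figure D2:**
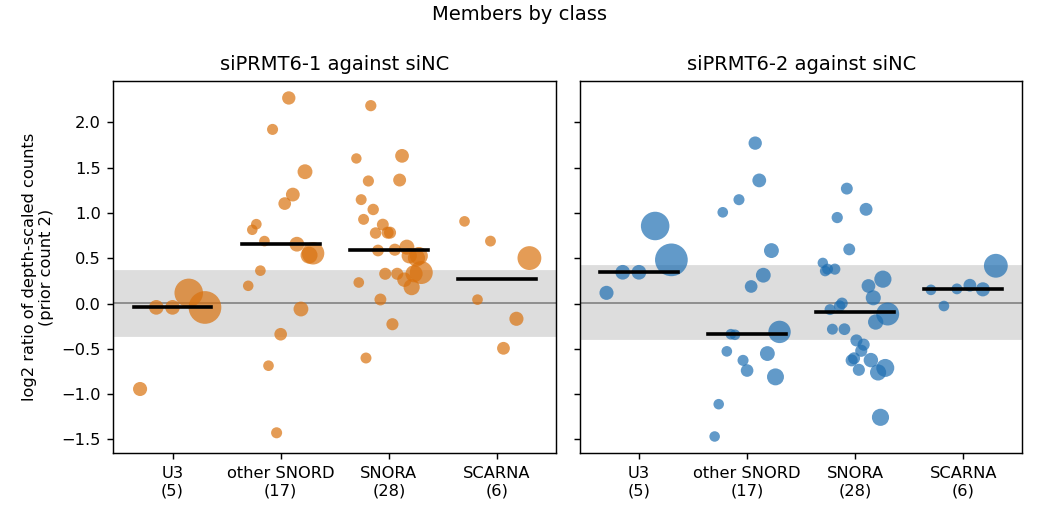
Log2 ratio to siNC of each member (1 point each, larger points for more counts, ordered within a group by summed counts) for siPRMT6-1 (left) and siPRMT6-2 (right), by class with the number of genes. Black bars are group medians, the gray line and band are the median and quartiles of the 8227 background genes; with siPRMT6-1 the other SNORD (0.65) and SNORA (0.59) medians lie above the band, and with siPRMT6-2 they lie at -0.34 and -0.09 within it.

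Among box C/D members that act in cutting the ribosomal RNA precursor, the U3 copy SNORD3A had 899, 838 and 1075 counts. SNORD3C had 444, 463 and 689. Both were highest in siPRMT6-2, with ratios to siNC of 1.40 (1.28 to 1.53) and 1.81 (1.61 to 2.05), and both had intervals that include 1 with siPRMT6-1, at 0.970 and 1.09. SNORD3C and SNORD3D lie within the spans of LOC388436 and LOC79999 on the opposite strand. Without these rows the ratio of the SNORD sum with siPRMT6-2 was 1.24 (1.15 to 1.34), not 1.38. SNORD3D had 30, 14 and 28 counts and SNORD3B-1 had 29, 27 and 32, and with siPRMT6-2 the intervals of both rows include 1. With siPRMT6-1 SNORD3D stood below siNC, at 0.486 (0.238 to 0.945), unlike the U3 sum. SNORD118, known as U8 and needed for 5.8S and 28S ribosomal RNA, went the other way with 59, 83 and 28 counts. Its ratios were 1.46 (1.04 to 2.08) and 0.555 (0.341 to 0.884). It shares exon bases with TMEM107 on the same strand, which was listed at 59, 89 and 28 counts, so reads can stand in both rows.

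U14, which pairs with 18S ribosomal RNA and is needed for its maturation, has 5 genes in the table. SNORD14C, within HSPA8 on chromosome 11, was the single U14 gene to reach the threshold, with 5, 31 and 19 counts. It was low in siNC alone, with ratios of 6.45 (2.49 to 21.3) and 4.44 (1.60 to 15.2), and its log2 fold change in the edgeR fit was 2.42 ± 0.72 (SE) with an adjusted p of 1.00. Its host HSPA8 had 251, 196 and 213 counts. SNORD14A and SNORD14E had 5 and 4 counts in all, and SNORD14B and SNORD14D had 0. SNORD22 (U22), a further factor for 18S ribosomal RNA, had 6, 8 and 3 counts. SNORD13 (U13), which guides the acetylation of 18S ribosomal RNA, had 18, 51 and 24, with ratios of 2.95 (1.69 to 5.36) and 1.56 (0.811 to 3.05).

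Of the guides for single methylation sites, SNORD10 (within EIF4A1) was the most abundant, with 185, 262 and 127 counts. Its ratios were 1.47 (1.22 to 1.79) and 0.802 (0.635 to 1.01), so it was high in siPRMT6-1 and its interval included 1 with siPRMT6-2. SNORD50A, within the noncoding host SNHG5, had 11, 27 and 27 counts and was low in siNC alone, with ratios of 2.55 (1.23 to 5.71) and 2.87 (1.38 to 6.41). SNHG5 itself was listed at 0 in each library. SNORD26, within SNHG1, had 2, 13 and 6 counts, and SNORD35A, within RPL13A, had 10, 23 and 10. SNORD33, the other RPL13A member, had 25, 39 and 27 counts and its intervals included 1. SNORD17, a 28S ribosomal RNA guide within SNX5, had 37, 34 and 21 counts, SNORD15B within RPS3 had 19, 14 and 9, and SNORD49B had 12, 3 and 6. These last 3 were highest in siNC, and only for SNORD49B with siPRMT6-1, at 0.260 (0.0471 to 0.964), did an interval exclude 1.

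Among box H/ACA members, SNORA73A (U17), which acts in cutting the 18S precursor, had 213, 260 and 168 counts. Its ratios were 1.27 (1.06 to 1.53) and 0.922 (0.749 to 1.13). SNORA73B, the second U17 copy, had 30, 35 and 16 counts. Both copies stand highest in siPRMT6-1 and lowest in siPRMT6-2, and both lie within SNHG3, which had only 17, 13 and 11 counts.

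Of the 4 pseudouridine guides with most counts, 3 had that order. SNORA7A had 76, 106 and 39 counts, SNORA57 had 70, 85 and 24, and SNORA84 had 53, 58 and 26. SNORA8, second among the 4 by its sum, did not: it had 53, 73 and 55 counts, lowest in siNC, with both intervals to siNC including 1. With siPRMT6-2 the first 3 were the SNORA members with intervals below 1, at 0.600 (0.397 to 0.894), 0.401 (0.241 to 0.645) and 0.573 (0.344 to 0.933). SNORA7A shares exon bases with RPL32, and SNORA84 has the same counts as the microRNA gene MIR3651 at the same place, so those reads are listed under both. SNORA57 lies within the span of LBHD1 on the opposite strand. Leaving out members inside an opposite-strand gene brought the SNORA ratio with siPRMT6-2 to 0.943 (0.832 to 1.07), and leaving out those that share same-strand exon bases brought it to 0.901 (0.795 to 1.02), so the interval below 1 rests on these members.

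Several SNORA members with fewer counts stood highest in siPRMT6-1. SNORA16A had 12, 40 and 12 counts, with a ratio of 3.47 (1.78 to 7.26) to siNC, and SNORA31 had 2, 16 and 5, with a ratio of 8.33 (1.96 to 74.6). SNORA31 shares exon bases on the same strand with TPT1, which had 105, 112 and 87 counts, so reads can stand in both rows. SNORA71D had 8, 23 and 16 counts and SNORA7B had 7, 14 and 10, lowest in siNC in both cases. SNORA67 and SNORA48, which share the host EIF4A1 with SNORD10, had 34, 48 and 25 and 29, 44 and 26 counts. SNORA12 was an exception, with 7, 7 and 17 counts, a ratio of 2.84 (1.12 to 8.10) for the last. SNORA12 reached the threshold of 15 only with its siPRMT6-2 counts, in which it is high. SNORA24, within SNHG8, had 15, 12 and 7 counts, and SNORA64 was the other SNORA member highest in siNC, with 9, 5 and 6.

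**Figure D3:**
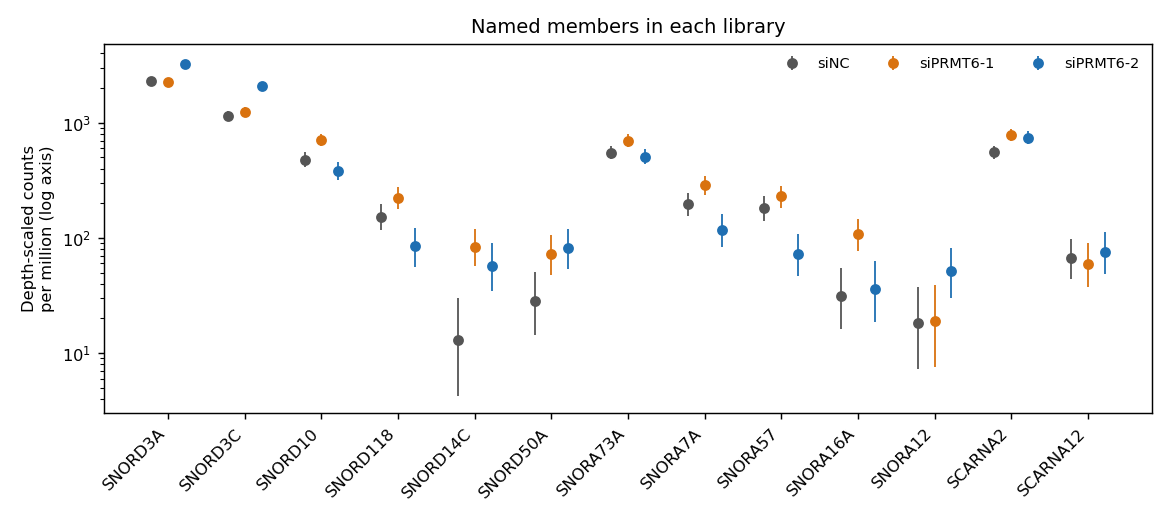
Depth-scaled counts (CPM, log axis) of 13 named members in siNC (gray), siPRMT6-1 (orange) and siPRMT6-2 (blue), 1 library each; bars are 95% exact Poisson intervals. SNORD3A and SNORD3C are highest in siPRMT6-2, SNORD10, SNORD118, SNORA7A and SNORA57 are highest in siPRMT6-1 and lowest in siPRMT6-2, and SNORD14C and SNORD50A are lowest in siNC.

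The SCARNA class was carried by SCARNA2, with 214, 292 and 245 counts. Its ratios were 1.42 (1.19 to 1.70) and 1.34 (1.11 to 1.62), higher than siNC in both. The other 5 members together had 58, 57 and 56 counts, level across the libraries within counting error. SCARNA12 (U89, a scaRNA with both kinds of box) had 26, 22 and 25 counts, SCARNA21 had 17, 11 and 17, SCARNA9 had 5, 9 and 5, SCARNA1 had 4, 9 and 4, and SCARNA9L had 6, 6 and 5. The class ratios of 1.34 (1.14 to 1.57) and 1.29 (1.09 to 1.53) were therefore those of SCARNA2, and without it the siPRMT6-1 ratio was 1.02 (0.697 to 1.50).

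Per base of exon, as CPM (depth-scaled counts relative to library size) per kilobase, a scale that allows for gene length but not for how well RNAs of each length were recovered, the SNORD3A row stood at 10737 in siNC, 10416 in siPRMT6-1 and 15009 in siPRMT6-2, with its share of the U3 reads uncertain. Outside U3, SNORD10 stood at 3240, 4775 and 2600, and SNORA73A at 2667, 3388 and 2459. SCARNA2, the longest of them, stood at 1321, 1875 and 1767. The order of these 4 values was the same in the 3 libraries, with SNORD10 and SNORA73A closest to each other in siPRMT6-2.

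As sums, host genes did not share the members' order of libraries, though some single hosts did. For 37 members in 29 hosts with at least 15 counts and no shared exon bases, member counts summed to 908, 1259 and 669 and host counts to 2842, 2411 and 2327. Members had ratios to siNC of 1.44 (1.32 to 1.57) and 0.861 (0.778 to 0.953), and hosts had 0.883 (0.836 to 0.932) and 0.957 (0.906 to 1.01). The median log2 ratios with siPRMT6-1 were 0.59 over the 37 members and 0.02 over the 29 hosts. With siPRMT6-2 both medians were -0.07. Across the 37 pairs Pearson's r of the log2 ratios was 0.04 with siPRMT6-1 and 0.18 with siPRMT6-2, as a description over genes of the same libraries, some sharing a host. Counts per exon base were higher in the member than in its host for 29 of the 37, with a median ratio of 5.12. Single hosts went both ways. METTL12, with 9, 13 and 3 counts, and DANCR, with 17, 22 and 5, had the order of their members SNORA57 and SNORA26. EIF4A1, which holds 3 members, had 189, 122 and 171 counts, lowest where its members SNORD10, SNORA48 and SNORA67 were highest. By GENCODE, 16 members lie within introns of a host, 35 overlap an exon of some host transcript and 5 have no host.

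**Figure D4:**
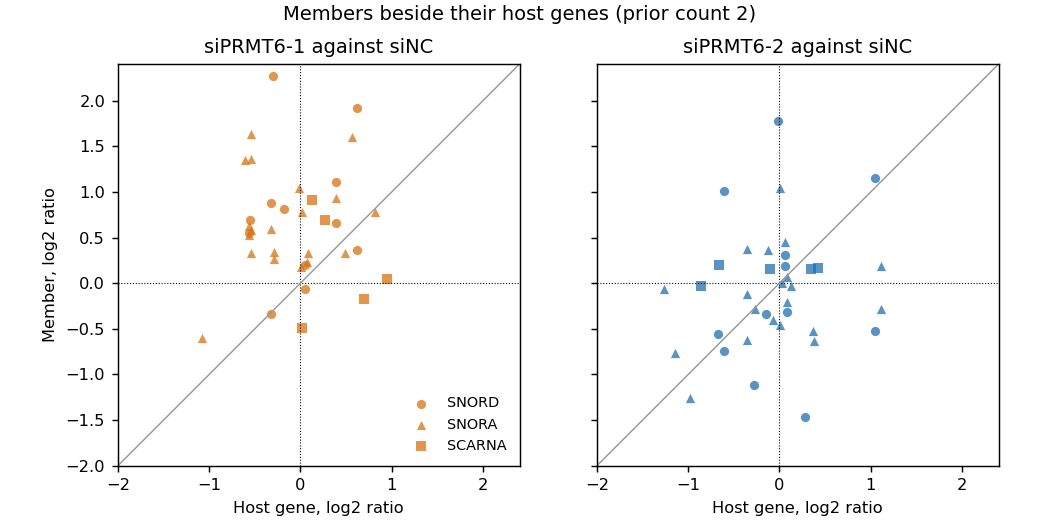
Log2 ratio to siNC of 37 members (vertical) against that of their host genes (horizontal), with siPRMT6-1 left and siPRMT6-2 right; circles are SNORD, triangles SNORA and squares SCARNA genes, and the diagonal marks equal values. With siPRMT6-1, 29 of the 37 points lie above the diagonal; with siPRMT6-2, 17 do.

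Of the genes for the proteins of these particles, only some were in the edgeR fit, in which 0 of 6803 genes were called. It held 4 of 4 core box C/D genes and 2 of 4 core box H/ACA genes. Of the assembly and transport genes it held 5 of 12, and of the Cajal body genes 1 of 3. The lack of a call is therefore not particular to these genes. The core box C/D proteins FBL, NOP56, NOP58 and SNU13 had 110, 94 and 103 counts together, with both intervals including 1 (0.889, 0.668 to 1.18, and 1.09, 0.828 to 1.45). The core box H/ACA proteins DKC1, NHP2, NOP10 and GAR1 had 50, 47 and 59. The 12 assembly and transport genes had 316, 233 and 228 counts, with a ratio of 0.767 (0.645 to 0.912) for siPRMT6-1. Among them TGS1, which caps U3 and other snoRNAs with trimethylguanosine, had 46, 20 and 21 counts and an adjusted p of 1.00 in the edgeR fit. The Cajal body genes COIL, WRAP53 and SMN1 had 29, 30 and 24 counts, and TERC, the telomerase RNA with an H/ACA domain, had 10, 10 and 8. The 26 noncoding host genes had 257, 181 and 191 counts. Only 8 of them were in the edgeR fit, with 0 called and 1 (SNHG22, with 62, 18 and 30 counts) at an unadjusted p under 0.05. Over the whole fit, 186 of 6803 genes had an unadjusted p under 0.05.

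Other short structural RNAs, in lists chosen after their values were seen, differed between the libraries in more than 1 way. The 11 spliceosomal snRNA genes had 2502, 3668 and 2191 counts, with ratios of 1.53 (1.45 to 1.61) and 1.02 (0.966 to 1.08). The Y RNA genes had 37, 101 and 15, with ratios of 2.84 (1.93 to 4.26) and 0.474 (0.242 to 0.885). Most of these counts were those of RNY1, with 30, 86 and 11. RNY3 had 7, 15 and 4, with both intervals to siNC including 1, and RNY4 and RNY5 were at 0 in each library. The longer 7SK, 7SL, RMRP and RPPH1 genes had 25831, 27512 and 28771 counts, with ratios of 1.11 (1.09 to 1.13) and 1.30 (1.28 to 1.32), and RPPH1 alone stood at 2.03 with siPRMT6-2. Members of up to 200 bases (45 genes) had a median log2 ratio of 0.62 with siPRMT6-1 and -0.07 with siPRMT6-2, and those above 200 bases (11 genes, among them the U3 rows and SCARNA2) had -0.04 and 0.16. The 40 other genes of up to 200 exon bases had medians of 0.19 and 0.06. Most of these 40 are microRNA genes by symbol, among them MIR3651 with the counts of SNORA84. Those with RNU, RNVU or RNY symbols had siPRMT6-1 ratios of 1.40 (RNU4-2) to 2.98 (RNY1), except RNVU1-1 at 0.694. With siPRMT6-2 the ratios of these RNU, RNVU and RNY genes ran from 0.429 (RNY1) to 2.23 (RNU12). The part of RNA length in the members' ratios was not tested.

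**Figure D5:**
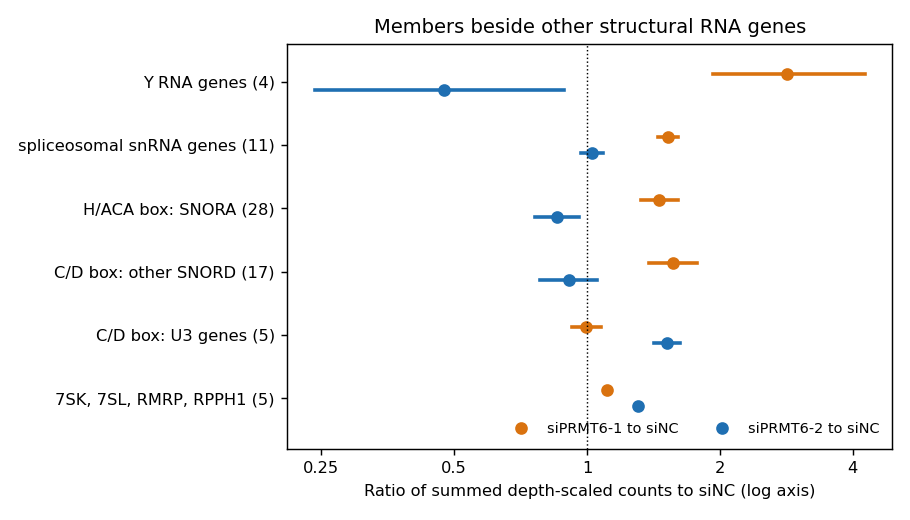
Ratio of summed depth-scaled counts to siNC (log axis) for siPRMT6-1 (orange) and siPRMT6-2 (blue), for members and for other structural RNA genes, with the number of genes and 95% exact binomial intervals. Y RNA (mostly RNY1), snRNA, SNORA and other SNORD sums stand higher with siPRMT6-1 than with siPRMT6-2, and those of U3 and the 7SK, 7SL, RMRP and RPPH1 genes the reverse.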

How the data were processed

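The deposited values are whole-number counts per gene, made by the authors with STAR 2.7.8a and featureCounts 2.0.10 on hg38, per the submitters' processing notes. The header of the table instead names version 2.0.1, and its command groups UCSC hg38 exons into genes by name, counts pairs with strand setting 1 and adds a read to every gene it overlaps. RNA came from a column kit and a stranded low-input total RNA kit, per the labels' protocols; such columns recover short RNAs poorly. The titles' siPRMT6-1 and siPRMT6-2 are si2 and si3 in the descriptions.

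Counts were scaled with TMM library sizes. The edgeR 4.0.16 quasi-likelihood test (R 4.3.3, filterByExpr with a minimum count of 10) set both knockdown libraries against siNC, with 1 residual degree of freedom, and the lone control was assumed to vary like them; it was tested on simulated data. DESeq2 1.42.0 was an alternative. No label states that separate cultures were used, so p-values reflect only how far these 3 libraries differ, which may be technical. Intervals came from scipy 1.17.1. Members and lists were chosen with earlier results of these data known, and the structural RNA lists after seeing these values. Named genes were the 8 SNORD, 8 SNORA and 5 SCARNA members with most counts, those with at least 30 counts and ratios of one sign with both siRNAs that were highest or lowest (up to 4 each way, SCARNA 2), the ribosomal RNA processing members and their hosts. SNORD26, SNORD49B, SNORD96A, SNORA17, SNORA31, SNORA64, EIF4A1, SNHG22, TGS1, RPPH1 and single snRNA and Y RNA genes were named after their values were seen. So were DANCR, TPT1, LRRC75A-AS1 and, where no rule above covers them, the members said to reach the threshold only with the counts of 1 library.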

Additional observations from a re-analysis of the deposited data

How the results depend on the processing

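Of 64 recomputed values, 56 stayed within their spread or within 1.5 times the count, 7 moved and 1 reversed. The SNORD ratio with siPRMT6-1 (1.12) was 1.27 without SNORD3A, 1.43 as the median of member ratios and 1.56 without the U3 genes. With siPRMT6-2 (1.38) it was 1.24 without members inside an opposite-strand gene and 1.13 as the median. Without the U3 genes, an alternative chosen after seeing the data, it was 0.908, reversed, with an interval (0.783 to 1.05) that includes 1. The SCARNA ratio with siPRMT6-1 (1.34) was 1.02 without SCARNA2. The edgeR legacy fit called 32 genes where the chosen fit called 0. The causes were not tested beyond the genes left out. Leaving out a knockdown library leaves no residual degrees of freedom, so that fit gave no test. No paired analysis was possible because the groups share only 1 replicate number and each siRNA has 1 library. Members near 15 counts carry intervals of several fold.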
